A study of Mus musculus with 24 samples.

Results

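Transcripts of T and natural killer (NK) lymphocytes were followed in whole blood and cerebral cortex of mouse neonates whose dams had breathed traffic-related nano-sized particulate matter (nPM) or filtered air. The members were 10 genes chosen by symbol from a table of 48709 annotated genes, namely Cd3d, Cd3e, Cd3g, Cd4 and Cd8a for T cells and Gzma, Prf1, Nkg7, Klrd1 and Il2rb for NK and cytotoxic cells. All 10 symbols matched exactly 1 gene. Dams in the exposed group were given nPM at 300 mg/m3 by the sample labels, for 5 hr/day on 3 days/week from gestational day 2 until birth, and dams of the control group received filtered air. The methods of the study print the dose in micrograms and name the substrain C57BL/6NJ, whereas the labels name C57BL/6J. Each tissue had 12 libraries, with 3 female and 3 male neonates for each exposure, at a labelled age of 3 to 5 days. The labels name no transgene or other agent in any group, and nothing in them ties a blood library to the cortex library of the same animal. The study's methods state that the 3 neonates of each sex and exposure came from different litters. They do not say whether a female and a male of the same exposure shared a litter. The labels give no litter, so the p-values measure the spread between these libraries only.

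T cells recognize antigen through a receptor whose variable chains signal through the invariant CD3 chains, and the CD4 and CD8 coreceptors separate helper from cytotoxic T cells. NK cells carry no such receptor and kill through granules that hold perforin (Prf1) and granzymes such as granzyme A (Gzma), with Nkg7 in the granule membrane. Klrd1 encodes CD94, the partner chain of NKG2 receptors, and Il2rb encodes the receptor chain for interleukin 2 and interleukin 15, which NK cells need to survive. In newborn mice the pool of T cells outside the thymus is still filling from thymic export, and whole blood RNA is dominated by red cell transcripts.

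Ribosome-depleted RNA was sequenced, and the deposited gene counts summed to 13595647 to 21895536 per blood library and 22301409 to 33804371 per cortex library. Blood identity was clear from globin genes, which took 66.2 to 76.8% of the counts in 11 blood libraries and at most 0.0678% in cortex. The control female library V2 stood apart in blood, with 50.1% globin counts and 22461 genes detected against 13254 to 17273 in the other 11, and its markers of neurons and glia summed to 113 counts per 1 M gene counts (CPM). Those markers summed to 45.8 CPM in the nPM male library V5 and to 1.25 to 12.7 CPM in the other 10 blood libraries. The study left out 1 unnamed blood library for its count distribution, and V2 was taken as that library here. The fits of blood therefore had 5 control and 6 nPM libraries, and values with V2 are given where they differ. Neuron and glia markers summed to 8339 to 9317 CPM in control cortex.

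The 3 CD3 genes lie side by side on chromosome 9 of the mm10 build. Cd3g, on the minus strand, spans chr9:44969572-44980431, Cd3d, on the plus strand, spans chr9:44981793-44987052, and Cd3e, on the minus strand, spans chr9:44998743-45009590. Cd3g and Cd3d are thus divergent neighbors with 1361 bases between them, and the whole cluster covers 40019 bases. Cd8a lies at chr6:71373427-71379173 on the plus strand, and Cd4 and Klrd1 share its chromosome, at chr6:124864692-124888221 on the minus strand and chr6:129591782-129598775 on the plus strand. Nkg7 lies at chr7:43437073-43438249 on the plus strand, Prf1 at chr10:61297836-61304263 on the plus strand, Gzma at chr13:113093825-113100979 on the minus strand and Il2rb at chr15:78480553-78495066 on the minus strand. No other annotated gene overlapped any of the 10.

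The upstream sequences of the divergent Cd3d and Cd3g pair and of Gzma are given here, because Cd3d and Cd3g were the most alike of all member pairs across blood libraries and Gzma was in the least alike pair. Each is the 250 bases before the RefSeq transcript start, on the gene's own strand and in build GRCm38.p6, at chr9:44981536-44981785, chr9:44980432-44980681 and chr13:113100982-113101231. Capitals mark matches, on either strand, to short motifs of lymphocyte factor families.
Cd3d: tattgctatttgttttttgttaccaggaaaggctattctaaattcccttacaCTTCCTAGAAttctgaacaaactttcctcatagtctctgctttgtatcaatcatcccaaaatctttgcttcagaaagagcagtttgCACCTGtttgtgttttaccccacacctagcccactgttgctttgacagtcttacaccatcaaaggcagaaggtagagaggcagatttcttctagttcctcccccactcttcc
Cd3g: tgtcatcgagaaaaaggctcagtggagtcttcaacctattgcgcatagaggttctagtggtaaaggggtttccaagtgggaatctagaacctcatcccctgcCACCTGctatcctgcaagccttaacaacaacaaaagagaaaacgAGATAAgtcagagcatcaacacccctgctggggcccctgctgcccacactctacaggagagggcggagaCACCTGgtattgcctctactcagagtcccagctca
Gzma: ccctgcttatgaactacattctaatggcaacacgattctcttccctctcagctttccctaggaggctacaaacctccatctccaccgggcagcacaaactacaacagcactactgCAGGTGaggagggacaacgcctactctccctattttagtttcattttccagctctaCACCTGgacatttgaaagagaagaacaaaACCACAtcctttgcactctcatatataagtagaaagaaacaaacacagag

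Promoter windows were given for 7 of the 10 members, without Cd4, Klrd1 and Il2rb. An E-box (CAGGTG) stood in 4 of these 7 windows (Cd3d, Cd3g, Gzma and Prf1) and in 17.2% of 32851 windows of the same length. An ETS motif (AGGAAG) also stood in 4 (Cd3d, Cd3e, Nkg7 and Prf1), against 29.5% of all windows, and in Cd3d it overlaps a STAT motif (TTCNNNGAA). The STAT motif stood in 2 (Cd3d and Nkg7) and in 7.02% of all windows. A RUNX motif (TGTGGT) stood in 3, all of them NK and cytotoxic members (Gzma, Nkg7 and Prf1), against 14.05% of all windows. A GATA motif (AGATAA) stood in the Cd3g window alone among the 7 and in 9.99% of all, and a T-box motif (AGGTGTGA) in the Nkg7 window alone and in 1.12% of all. The Cd8a window held none of the 6 motifs. These matches are descriptions of letters in a window.

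Members were sparse in neonatal blood. Between 138 and 615 counts fell on all 10 together in a blood library, and where a gene had 0 counts its level could still be as high as 0.137 to 0.221 CPM (3 counts, for counting error only). Cd3g and Cd3d led when levels were divided by gene length, but Cd3e did not. Over 11 blood libraries, Cd3g averaged 2.31 CPM per kilobase, Cd3d 1.60 and Gzma 1.34. Cd3g was above Cd3d in 11 of 11 libraries, and Cd3d above Gzma in 9 of 11. Below them the members were close, with Nkg7 at 0.578, Cd3e at 0.568, Il2rb at 0.478, Klrd1 at 0.457, Cd4 at 0.447 and Cd8a at 0.395 CPM per kilobase. Adjacent genes in that run kept their order in only 6 to 8 of 11 libraries. Prf1 was last at 0.0600 CPM per kilobase and below Cd8a in 11 of 11 libraries.

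Blood and cortex were compared in control animals on plain CPM of the library total. Of the 10 members, 8 were higher in blood with no overlap between the 5 blood and 6 cortex libraries, where 2.81% of 31272 genes with a count showed the same pattern. For each of the 8 the exact two-sided permutation p was 0.00216, the smallest that 5 against 6 libraries can give. The study describes blood and cortex as taken from the same animals, but the labels do not pair the libraries, so this test treats them as independent. Cd3g was at 2.76 ± 1.77 CPM (SD, n = 5) in blood and at 0.00654 ± 0.0160 CPM (n = 6) in cortex. Nkg7, at 0.745 ± 0.364 CPM in blood, had 0 counts in all 6 control cortex libraries and 1 count over all 12. Other cortex sums over 12 libraries were 2 counts for Cd3g, 4 for Cd3d, 7 for Prf1, 8 each for Cd3e and Gzma, 9 for Cd8a, 10 for Klrd1 and 48 for Il2rb. The 9 counts of Cd8a included 6 in a single library, an nPM male.

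Cd4 was the exception in cortex. Its counts there summed to 639 over 12 libraries, from 3 in a control male to 83, and its level of 1.60 ± 1.02 CPM in control cortex overlapped the 2.23 ± 1.61 CPM of control blood (exact permutation p = 0.468). After globin counts were taken out of the blood totals, Cd4 was at 8.44 ± 5.91 CPM in blood and the p was 0.00433, although 1 blood library still lay within the cortex range. In the same 12 cortex libraries no CD3 gene had more than 8 counts. Prf1, the granule pore protein, did not separate the tissues, at 0.117 ± 0.214 CPM in blood and 0.0409 ± 0.0471 CPM in cortex (exact permutation p = 0.608). In bulk RNA, fewer cells of a type and less RNA per cell cannot be told apart.

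**Figure D1:**
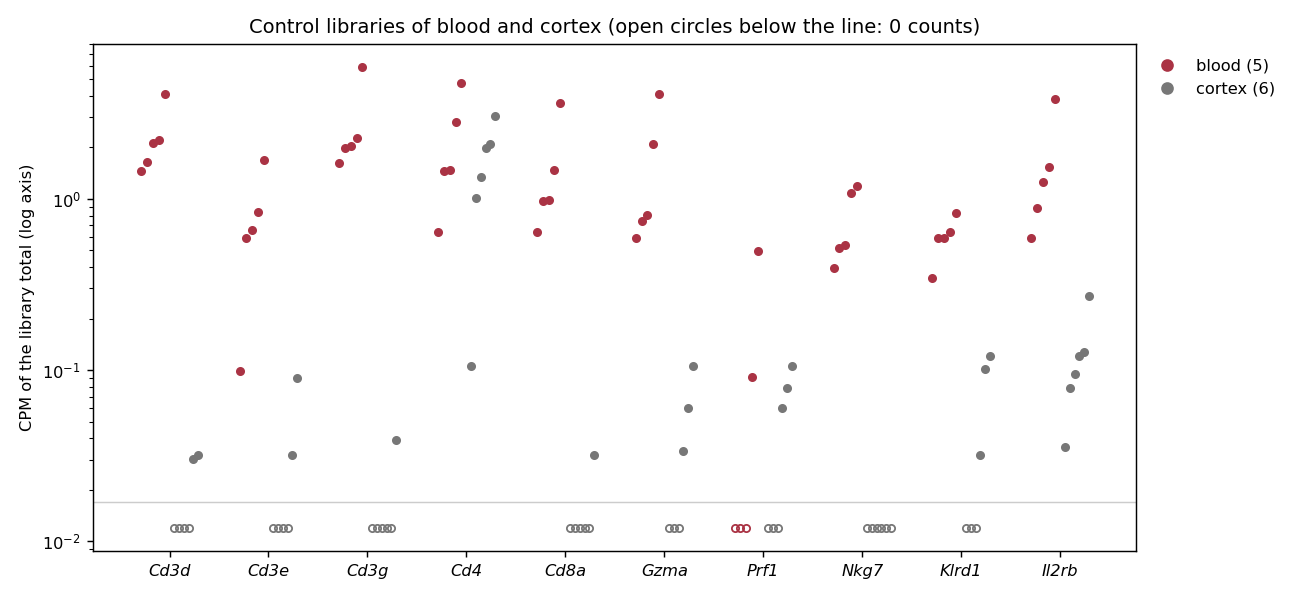
CPM of the library total (log axis) for each member in control blood (5 libraries, red) and control cortex (6 libraries, gray), with each point a library and open circles below the line for 0 counts. Blood and cortex points are apart for 8 members, while Cd4 and Prf1 overlap.

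T members varied together across blood more closely than NK members did in these 11 libraries. Cd3d and Cd3g had the highest Pearson r of all 45 pairs (0.93 over 11 libraries on log2(CPM + 0.5), and 0.91 without the control female V4). Among the 10 pairs of T members the median r was 0.79, from 0.49 to 0.93. It was 0.61 without V4 and 0.69 without V4 and the control male V22. Among the 10 pairs of NK and cytotoxic members the median r was 0.52, from 0.08 to 0.69. It was 0.43 without V4 and 0.02 without V4 and V22. Between the blocks the median r was 0.18, from -0.45 for Cd3e with Gzma to 0.72 for Cd4 with Il2rb. Il2rb had an r of 0.71 with Cd3g, 0.62 with Cd8a and 0.59 with Cd3d, and its 4 values with these genes and Cd4 were 0.13 to 0.34 without V4. These values describe 11 libraries that share V4, sampling noise of low counts and the globin share, and no p is given for them.

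A pair of control libraries set the extremes. In V4 the 5 T members summed to 20.05 CPM, against 3.49 to 11.5 CPM in the other 11 blood libraries, and the 5 NK and cytotoxic members to 8.04 CPM. V22 had nearly as high an NK sum (7.86 CPM) with a T sum of only 6.97 CPM. All remaining libraries, V2 included, had NK sums of 2.17 to 3.78 CPM. V22 also had 83 counts of Gzma and 10 of Prf1, where the other blood libraries had 6 to 46 and 0 to 4. Its Cd3e had 2 counts beside 46 of Cd3g, a ratio per length of 0.0324, where the other libraries had 0.154 to 0.406.

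**Figure D2:**
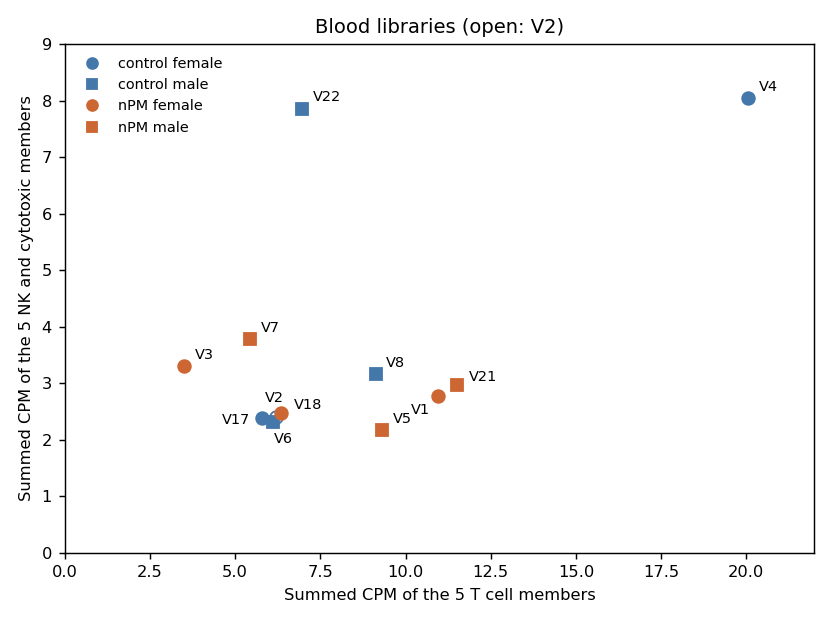
Summed CPM of the 5 T cell members (x axis) and of the 5 NK and cytotoxic members (y axis) in each of the 12 blood libraries, colored by exposure, with circles for females and squares for males. V4 lies alone at 20.05 and 8.04 CPM and V22 at 6.97 and 7.86 CPM, and the other 10 libraries have NK sums of 2.17 to 3.78 CPM.

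V4 differed in more than the members. Its count of Ptprc, the CD45 gene of all white cells, was 1354, or 61.8 CPM, against 18.3 to 48.2 CPM in the other libraries. Rag1, the recombinase that joins receptor gene segments in thymocytes and B cell precursors, had 330 counts, or 15.1 CPM, where the others had 0.283 to 4.53 CPM. The 6 genes listed for thymocytes summed to 22.4 CPM in V4 and to 1.25 to 8.33 CPM in the others. Relative to Ptprc, V4 was within the range of the rest, with 32.4 counts of T members per 100 Ptprc counts, where all 12 libraries ran from 16.2 to 33.2. For the NK members all 12 ran from 6.17 in the nPM male V21 to 21.3 in V22, with V4 between them. The part of these cell markers in the nPM comparison was not tested, and values without V4 stand beside the results it moved most. The Cd4 to Cd8a ratio per length ran from 0.601 to 1.80 in the 11 libraries and was 3.16 in V2.

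The nPM comparison asked whether prenatal exposure moved these transcripts in neonatal blood. Levels in the next paragraphs are CPM scaled by TMM factors (edgeR's trimmed mean of M values) in the 11 libraries. Control libraries are listed in the order V17, V4 (females), V22, V6, V8 (males). No member separated control from nPM libraries without overlap, and 0.221% of the 9977 genes tested did so in either direction. Nkg7 alone had an exact permutation p under 0.05 among the 10 members, without adjustment. The share of all genes with such a p was not computed, so this count is no result about the members.

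For the CD3 chains, Cd3g was at 2.33, 4.62, 2.06, 2.12 and 2.12 CPM in controls and at 1.03 to 3.18 CPM (median 2.12) in the 6 nPM libraries. V4 stood alone at the top, and the other 4 controls lay inside the nPM range. The group means were 2.65 ± 1.11 and 2.15 ± 0.807 CPM (SD, n = 5 and 6), with an exact permutation p of 0.457. Its divergent neighbor Cd3d was at 1.88, 3.22, 1.92, 1.91 and 2.35 CPM in controls and at 0.738 to 3.11 CPM (median 1.87) after nPM (exact permutation p = 0.381). Here 4 of 6 nPM libraries were below the lowest control, but the upper pair of them was at 1.87 CPM against its 1.88. Cd3e was at 0.967, 1.32, 0.0894, 0.778 and 0.706 CPM in controls and at 0.344 to 1.17 CPM (median 0.808) after nPM, and its groups overlapped throughout (exact permutation p = 0.864).

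The coreceptors were as variable. Cd4 was at 0.739, 3.72, 1.34, 1.91 and 2.98 CPM in controls and at 0.738 to 1.84 CPM (median 1.46) after nPM. Although 3 of 5 controls were above every nPM library, V17 was as low as the lowest of them, and the means of 2.14 ± 1.21 and 1.40 ± 0.432 CPM had an exact permutation p of 0.214. Cd8a was at 0.739, 2.83, 0.894, 1.27 and 1.57 CPM in controls and at 0.640 to 2.72 CPM (median 1.15) after nPM (exact permutation p = 0.747). Its highest values were V4 and the nPM female V1, 1 from each group.

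Nkg7, the granule membrane protein, was lower after nPM at the level of single-gene tests. Controls were at 0.455, 0.931, 0.983, 0.707 and 0.549 CPM, and the nPM females were at 0.320, 0.151 and 0.295 and the nPM males at 0.510, 0.140 and 0.633 CPM. All 3 nPM females and 1 nPM male (V5) lay below the lowest control, and 3 of 5 controls lay above the highest nPM library. The means were 0.725 ± 0.231 and 0.342 ± 0.196 CPM, with an exact permutation p of 0.0173. These levels rest on 7 to 26 counts per control library and 3 to 12 per nPM library. At 3 counts, as in the nPM female V1, a plain level of 0.154 CPM had a 95% Wilson interval of 0.0525 to 0.454 CPM. In plain CPM the exact permutation p was 0.0476 over the 11 libraries. With V2, at 10 counts or 0.472 CPM before scaling, it was 0.0519 in plain CPM. With TMM scaling of all 12 libraries, in which V2 had a factor of 6.56, it was 0.130.

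Gzma, granzyme A, was at 0.853, 1.65, 3.71, 0.778 and 0.863 CPM in controls and at 0.510 to 1.43 CPM (median 0.645) after nPM. V22 and V4 were the 2 highest libraries, and the other 3 controls lay inside the nPM range. The means of 1.57 ± 1.25 and 0.766 ± 0.348 CPM had an exact permutation p of 0.110. Il2rb was at 1.02, 3.01, 1.39, 0.778 and 1.33 CPM in controls and at 0.748 to 1.32 CPM (median 1.13) after nPM (exact permutation p = 0.262), again with V4 highest. Klrd1 was at 0.606 ± 0.137 CPM in controls and 0.573 ± 0.297 CPM after nPM (exact permutation p = 0.846). Prf1 had 0 counts in 3 controls (V17, V6 and V8) and 1 to 4 counts in each nPM library, but V22 had 10 counts, and the means of 0.104 ± 0.194 and 0.126 ± 0.0496 CPM had an exact permutation p of 0.883.

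**Figure D3:**
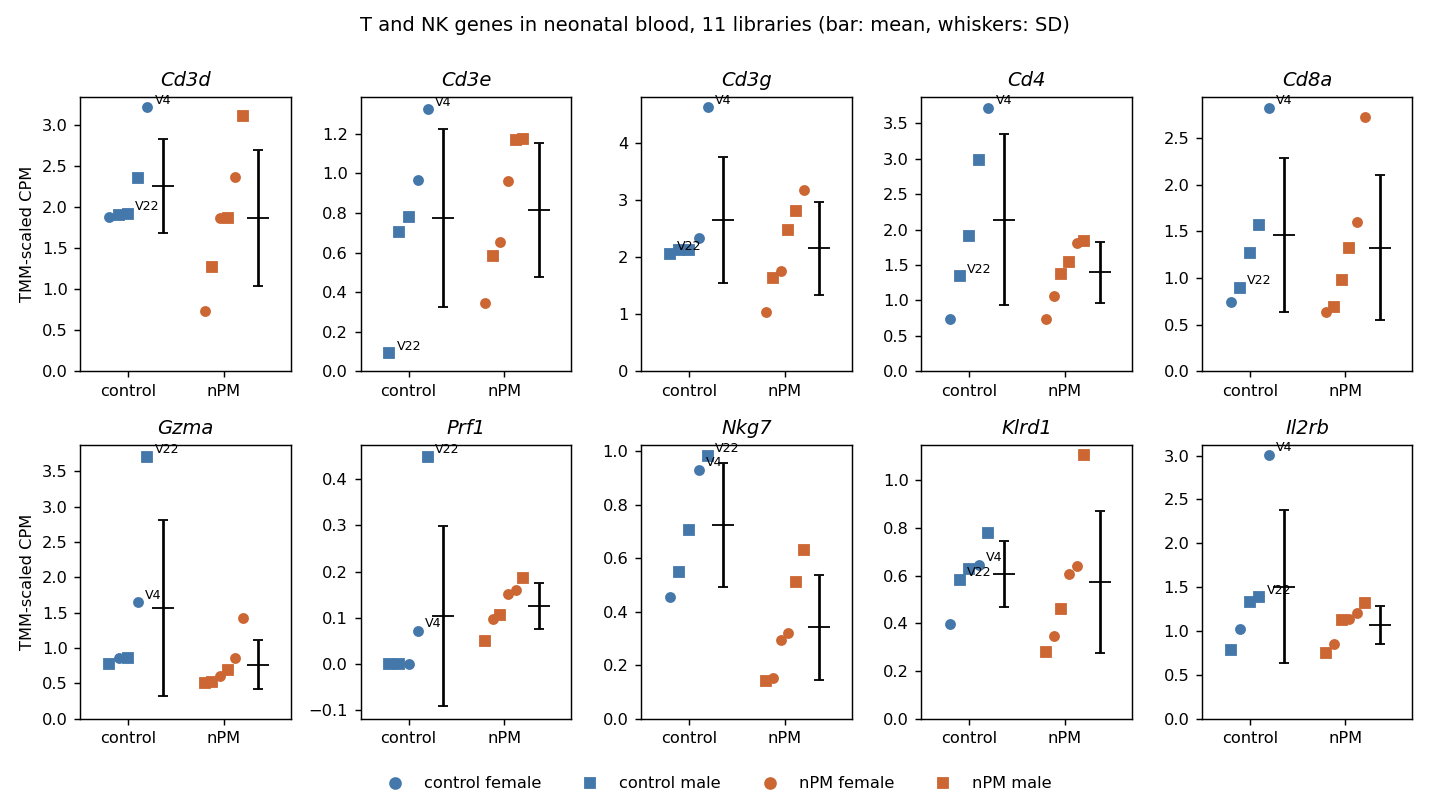
TMM-scaled CPM of each member in the 5 control and 6 nPM blood libraries, with circles for females and squares for males, bars for group means and whiskers for SD. V4 is the highest library for Cd3d, Cd3e, Cd3g, Cd4, Cd8a and Il2rb, V22 for Gzma, Prf1 and Nkg7, and no gene separates the groups.

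A fit over all genes gave the effect of nPM with sex and RNA integrity number (RIN) as covariates (model 1, edgeR's quasi-likelihood test, 9 members among 9977 genes, without Prf1). No member had an adjusted p under 0.05, a threshold that 0% of all genes passed, and none had an unadjusted p under 0.005, which 0.17% passed. At an unadjusted p under 0.05, which 3.11% of all genes passed, 2 of the 9 members were called, both lower after nPM, where 1.54% of all genes were called lower. Gzma had a log2 fold change of -1.12 (SE 0.43, unadjusted p = 0.0162) and Nkg7 of -1.09 (SE 0.42, unadjusted p = 0.0176), each with an edgeR adjusted p of 1.00. The log2 fold change was below 0 for 8 of 9 members, where 49.6% of all genes were, and its median was -0.28 against 0.00 over all genes. Cd4 was at -0.54, Il2rb at -0.50, Cd3g at -0.28, Cd3d at -0.26, Cd8a at -0.14, Klrd1 at -0.01 and Cd3e at 0.06.

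Fewer members were below 0 without V4. Then 5 of 9 members were below 0, against 48.3% of all genes, the median was -0.04, and 1 member had an unadjusted p under 0.05, as 3.51% of all genes had. Cd4 moved to -0.04, Il2rb to -0.08 and Cd3g to 0.01, while Nkg7 stayed at -0.83 (unadjusted p = 0.0761) and Gzma at -1.12 (unadjusted p = 0.0376). Gzma in turn rested on V22, without which it was at -0.48 (unadjusted p = 0.200). Nkg7 was at -1.01 without V22 (unadjusted p = 0.0467, a threshold of 0.05 that 2.86% of all genes then passed) and at -0.71 without the nPM female V1 (unadjusted p = 0.173), in which it had 3 counts. With all 12 libraries 6 of 9 members were below 0, against 54.9% of all genes. None had an unadjusted p under 0.05, which 2.2% passed. In every fit of all 12 libraries V2 had a TMM factor of 6.56, which lowers its scaled levels. Its Cd3g, for instance, was at 2.08 CPM before scaling and at 0.317 CPM after. The part of this scaling in the values with V2 was not tested.

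**Figure D4:**
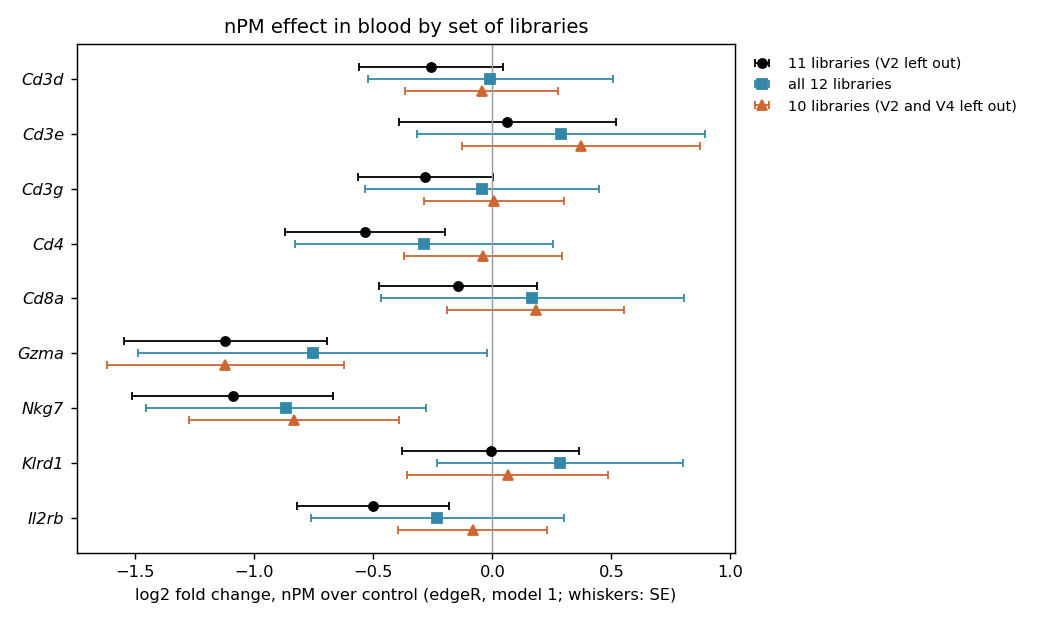
Log2 fold change of nPM over control in blood (model 1) with its SE for 9 members, from 11 libraries, from all 12 and from 10 without V2 and V4. Nkg7 and Gzma stay below 0 in the 3 sets, whereas Cd4, Il2rb and Cd3g move to -0.04, -0.08 and 0.01 without V4.

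Ratios to Ptprc do not depend on the globin share of a library. On log2 of member over Ptprc counts, Nkg7 was at -5.46 ± 0.40 in controls and -6.55 ± 0.88 after nPM, a difference of -1.09 with an exact permutation p of 0.0325. It was lower against Ptprc under every omission of 1 library, but the exact permutation p was over 0.05 without each of 4 controls, at 0.0571 without V4 or V8 and 0.0762 without V22 or V6. It was 0.00794 to 0.0476 under the other omissions and 0.0152 with V2 included. No other member passed over the 11 libraries, and the share of all genes that would pass was not computed. Prf1 and Cd3e were higher, by 1.12 (exact permutation p = 0.149) and 0.41 (exact permutation p = 0.699). Without V22 they were at 1.79 (exact permutation p = 0.0143) and -0.23 (exact permutation p = 0.476). Prf1 had 0 counts in the controls V17, V6 and V8, where its ratio is set by the 0.5 added to both counts. Cd3e had 2 counts in V22. Among the lower members the differences were -0.75 for Gzma (exact permutation p = 0.186), -0.38 for Cd4 (exact permutation p = 0.275) and -0.24 for Cd3g (exact permutation p = 0.201). Ptprc itself had a log2 fold change of -0.07 in model 1.

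Member differences were also taken within each sequencing lane. Lane 1 held 3 control and 4 nPM blood libraries and lane 3 held 2 of each. Nkg7 was lower after nPM in both, with a log2 ratio of group means of -1.26 in lane 1 and -0.79 in lane 3, and so were Gzma (-0.44 and -1.74) and Il2rb (-0.63 and -0.29). Klrd1 (-0.23 and 0.17) and Prf1 (2.51 and -1.08) differed in direction between the lanes. The T members Cd3d, Cd3e, Cd3g, Cd4 and Cd8a were lower after nPM in lane 1, which holds V4, with log2 ratios of -0.68, -0.45, -0.50, -1.07 and -0.59. In lane 3 the same 5 ratios were above 0, at 0.39, 1.01, 0.06, 0.48 and 0.84. With 2 libraries on each side these lane values were not tested, but with lane as a covariate in the fit Nkg7 was at -1.07 (unadjusted p = 0.0257) and Gzma had an unadjusted p of 0.0370.

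The study also asked whether the response to nPM depends on sex, and model 2 added that interaction. In females all 9 members had a log2 fold change below 0, where 53% of all genes did, with a median of -0.83 against -0.04. At an unadjusted p under 0.05, which 9.34% of all genes passed, 4 members were lower in nPM females, where 4.27% of all genes were called lower. These were Cd3g at -1.01 (SE 0.36, unadjusted p = 0.0109), Nkg7 at -1.38 (SE 0.62, unadjusted p = 0.0368), Cd4 at -1.04 and Il2rb at -0.97 (unadjusted p = 0.0393 for both), and the lowest edgeR adjusted p was 0.491. The control females were only V17 and V4. Without V4, a fit that leaves V17 as the lone control female and assumes it varies like the other libraries, 4 of 9 members were below 0, none had an unadjusted p under 0.05, and the median was 0.03. With all 12 libraries, and so with V2 as the third control female, 6 of 9 were below 0, none had an unadjusted p under 0.05, which 17.2% of all genes then passed, and the median was -0.20.

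In males 4 of 9 members were below 0, with a median of 0.06. Gzma was lower in nPM males, at -1.80 (SE 0.55, unadjusted p = 0.00388, edgeR adjusted p = 0.941), the only member with an unadjusted p under 0.05, where 4.99% of all genes were called and 1.91% called lower. An unadjusted p under 0.005 was reached by 0.351% of all genes. It moved to -0.60 (unadjusted p = 0.298) without V22, and with all 12 libraries it was at -1.86 with an unadjusted p of 0.0765, and no member then had an unadjusted p under 0.05, which 1.63% of all genes passed. The control males were at 3.71, 0.778 and 0.863 CPM for Gzma and the nPM males at 0.510, 0.514 and 0.686 CPM. Gzma was the 1 member of 10 whose male groups did not overlap, as 11.1% of 9977 genes did not. The interaction itself, male minus female effect, had an unadjusted p under 0.05 for Cd3g (1.42, SE 0.52, unadjusted p = 0.0126) and Cd3e (1.87, SE 0.88, unadjusted p = 0.0467), where 10.7% of all genes did, and edgeR adjusted p-values of 0.452 and 0.459. Without V4 the unadjusted p was 0.141 for Cd3g and 0.184 for Cd3e.

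**Figure D5:**
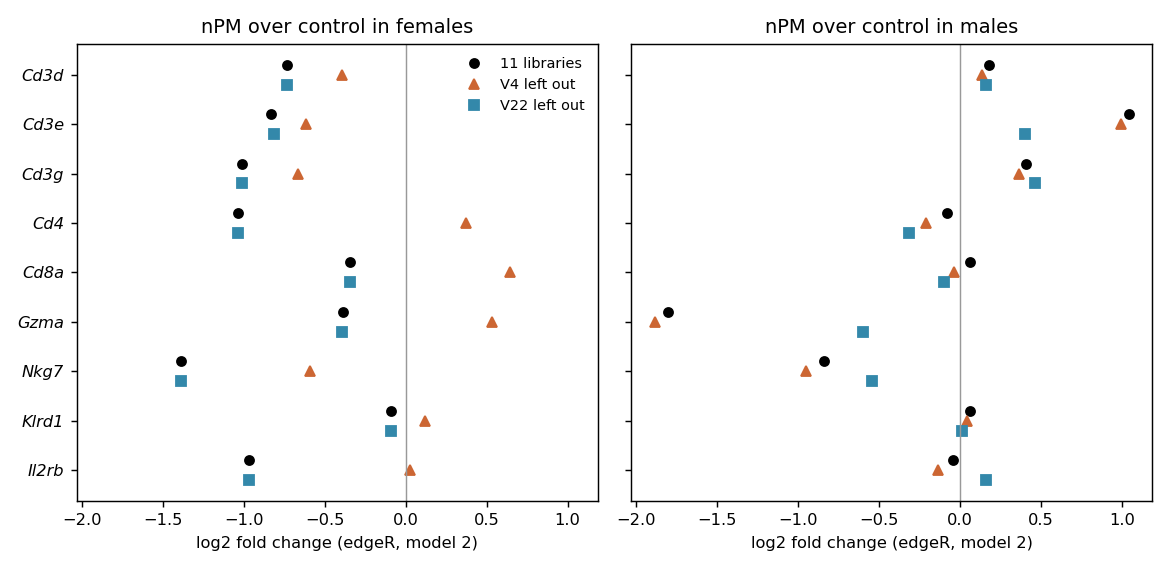
Log2 fold change of nPM over control in females (left) and males (right) from model 2 for 9 members, with 11 libraries, without V4 and without V22. In females all 9 lie below 0 with 11 libraries and 4 of 9 without V4, and in males Gzma moves from -1.80 to -0.60 without V22.

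Cd8a was lower in males in the fit that adjusts for RIN, at the level of single-gene tests. In model 1 its log2 fold change of males over females was -1.08 (SE 0.38, unadjusted p = 0.0108, edgeR adjusted p = 0.999), the only member of 9 with an unadjusted p under 0.05, which 4.53% of all genes passed, 1.55% with a lower level in males. Females were at 0.640 to 2.83 CPM (median 1.60) and males at 0.686 to 1.57 CPM (median 1.13), so that the sexes overlapped. Their means, without adjustment for RIN, were 1.71 ± 1.05 and 1.12 ± 0.324 CPM. V4 and V1 were the highest females, at 2.83 and 2.72 CPM, while V17 and V3 were at 0.739 and 0.640 CPM. RIN was 7.5 to 9.0 in females and 8.3 to 9.3 in males, and its part in the sex effect was not tested. The effect was at -0.74 (unadjusted p = 0.335) with all 12 libraries.

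Only Cd4 and Il2rb had counts in every cortex library. Their log2 fold changes with nPM were 0.29 (SE 0.42, edgeR adjusted p = 0.933) and 0.18 (SE 0.46, edgeR adjusted p = 0.965), and neither had an unadjusted p under 0.05, which 5.67% of 20857 cortex genes passed, or an adjusted p under 0.05, which 0.0144% passed. The remaining 8 members had at most 10 counts each over all 12 cortex libraries. The 7 counts of Prf1 all fell in 3 control libraries, at 2, 3 and 2, with none after nPM (exact permutation p = 0.182 on TMM-scaled CPM). With a filter of 1 count in any library its unadjusted p was 0.0167 and its edgeR adjusted p 0.574.

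Other genes of the T cell program were read from lists. Of 24 genes of the receptor complex and its signaling chain, 21 were tested in blood, 17 were below 0 and 1 passed an unadjusted p under 0.05, with a list median of -0.38, where 49.6% of all genes were below 0 and 3.11% passed. That gene was Cd247, the CD3 zeta chain, at -0.88 (SE 0.34, unadjusted p = 0.0179, edgeR adjusted p = 1.00), and it was at -0.69 (unadjusted p = 0.0869) without V4. The receptor constant genes Trbc1 and Trbc2 were at -0.67 and -0.53 and the kinase gene Lck at -0.38, and these moved to -0.19, -0.05 and 0.00 without V4. The adaptor gene Lcp2 was at 0.13. Without V4 the list had 14 of 21 below 0, none past that threshold, and a median of -0.05. The shares of all genes below 0 and past that threshold are also the background for the other blood lists.

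All 12 tested genes of 16 for T cell transcription factors and homing were below 0, with a median of -0.31. Id3, an inhibitor of E proteins, was the 1 gene past an unadjusted p of 0.05, at -1.30 (SE 0.42, unadjusted p = 0.00595, edgeR adjusted p = 1.00). It was at -0.99 (unadjusted p = 0.0335) without V4. With all 12 libraries, which add V2 and its 456 counts of Id3, it was at -1.77 (unadjusted p = 0.00676). Runx3, a factor of CD8 T cells and NK cells, was at -0.75 (unadjusted p = 0.0810). Ets1 was at -0.30 and the chromatin organizer gene Satb1 at -0.21. Without V4, 7 of these 12 were below 0 and the median was -0.01. Ets1, Satb1 and Id3 are also expressed in cortex, at 31.9, 163 and 27.4 CPM on average. V2 had 604 counts of Satb1 and 456 of Id3, and the source of these counts was not tested. Neuron and glia markers summed to 113 CPM in V2 and to 8339 to 9317 CPM in control cortex.

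Of 32 measured genes for NK receptors and cytotoxic effectors, 14 were tested, 10 were below 0 and none passed an unadjusted p of 0.05 (median -0.15). The NK receptor genes Klrb1c and Klrk1 were at -0.91 (unadjusted p = 0.0578) and -0.58 (unadjusted p = 0.196), and at -0.95 and -0.90 without V4, when 7 of the 14 were below 0. Tyrobp was at -0.17 and Fcer1g at 0.14, both adaptor genes that myeloid cells share, and the integrin gene Itga2, which platelets share, was at 0.24. With all 12 libraries 4 of 13 were below 0 and the median was 0.18. Of 6 thymocyte genes 4 were tested, 2 were below 0, and Rag1 passed at -1.31 (SE 0.42, unadjusted p = 0.00565, edgeR adjusted p = 1.00), but was at -0.55 (unadjusted p = 0.146) without V4. Dntt was at -0.86 (unadjusted p = 0.0712), Arpp21 at 0.35 and Cd1d1 at 0.06.

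Markers of other blood cells were read beside the members. All 11 tested B cell genes were below 0 (median -0.30, led in level by Ighm at -0.12), and 10 of 11 without V4. All 9 platelet genes were above 0 (median 0.26, Itgb3 at 0.44). In the females of model 2, with only V17 and V4 as controls, 8 of 9 had an unadjusted p under 0.05, as 9.34% of all genes had. In males all 9 were below 0, where 48.1% of all genes were. Without V4 the platelet median in model 1 was 0.06, with 7 of 9 above 0. Of 11 neutrophil genes 5 were below 0 (S100a9 at -0.21), of 10 monocyte, macrophage and dendritic cell genes 5 (Lyz2 at 0.17), of 9 erythroid genes 2 (Alas2 at 0.09), or 8 without V4, and of 6 globin genes 5 (Hbb-bs at -0.13). Of 5 pan-leukocyte genes 4 were below 0, and 1 was lower at an unadjusted p under 0.05. Only 3 genes each of the neuron and glia list (Map2 at 0.68) and of the microglia list (P2ry12 at -0.19) were tested. In each of these 2 lists 1 gene was higher after nPM at an unadjusted p under 0.05 in model 1. There 3.11% of all genes passed. No gene of these lists had an edgeR adjusted p under 0.05, and the part of these cells in the members' values was not tested.

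The genes most like the 10 members over the 11 blood libraries were sought among 6077 others with a mean of at least 1 CPM, by Pearson r with the mean of the members' standardized log2(CPM + 0.5). They were Ms4a4b, a T cell membrane protein of the MS4A family, at 0.98, the T lineage factor gene Bcl11b and the thymocyte antigen gene Thy1 at 0.95 each, and Srsf6, a splicing factor gene, and Metap1, a methionine aminopeptidase gene, at 0.94 each. Without V4 these values were 0.96, 0.90, 0.92, 0.92 and 0.84. Ms4a4b had 75 to 351 counts per library, more than any member. Between T and NK members the median r was only 0.18, so likeness to this mean is not likeness to each member.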

How the data were processed

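RNA-seq of 12 blood and 12 cortex libraries was used. The authors trimmed reads with Trimmomatic where needed, aligned them with HISAT2 to the mm10 build and ran featureCounts 1.5.0-p3 for counts on Gencode genes, as the submitters' processing notes and the study's methods state. The deposited gene counts were not normalized, and the strand setting is not given in the sources used here. The gene table also holds a mean RPKM made by the authors from those counts, which entered no result, and gene lengths.

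From the counts, CPM of the library total and CPM scaled by TMM factors were computed. edgeR 4.0.16 (R 4.3.3) was fitted with its quasi-likelihood test, two-sided, to genes without a 0 among the libraries fitted, with exposure, sex and RIN (model 1) or exposure, sex, their interaction and RIN (model 2, females as reference). Benjamini-Hochberg adjustment ran over all genes of a fit. Single members were compared with exact two-sided permutation tests over libraries, and on log2 ratios to Ptprc with 0.5 added to both counts. For 6 against 5 libraries the smallest p is 0.00216. Wilson intervals (95%) and floors of 3 counts cover counting error only, because reads without molecular identifiers are not independent molecules. Scripts were tested on simulated counts. No 2 libraries of a tissue were copies, with a smallest chi-square per gene of 11.0 in blood and 5.75 in cortex, where sampling alone gives about 1.

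V2 was left out of the blood fits, as above. Alternatives were all 12 libraries, limma voom 3.58.1, DESeq2 1.42.0, RLE normalization, other count filters, no globin genes, no RIN, a lane term and each library left out in turn. Plain CPM in place of scaled CPM, and lists without V4, V5 or V22, were chosen after seeing the data. The members, gene lists and tests were chosen with earlier results of these data known. Named besides the members are, from each list of T and NK genes, the 3 with the highest mean blood CPM and the 2 with the smallest p, from each list of another cell type the gene with the highest mean CPM, and the 5 genes most like the members. The result of 1 gene that this rule names is not reported here. Promoters are from RefSeq (GRCm38.p6). Protein sequences were not used here.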

Additional observations from a re-analysis of the deposited data

Results flagged for a closer look

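Of 26 groups of member values, 4 held a library far from the others by Dixon's test at the 95% level, which chance gives in about 1 in 20 groups. In control blood, Cd3g was at 4.62 TMM-scaled CPM in V4 (129 counts), with the nearest control at 2.33, and Il2rb at 3.01 CPM in V4 (84 counts), with the nearest at 1.39. V4 is the control female in which Rag1 and Ptprc were also highest. Prf1 in control blood was at 0.447 CPM in V22 (10 counts), with the nearest at 0.0716, and Gzma was highest in the same library. After nPM, Gzma was at 1.43 CPM in the female V3 (29 counts), with the nearest nPM library at 0.853.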

How the results depend on the processing

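No member had an adjusted p under 0.05 in model 1, in the interaction or in cortex under any alternative run. In the main fits 3.11% of all genes had an unadjusted p under 0.05 for nPM, 4.53% for sex, 10.7% for the interaction and 5.67% in cortex. The shares under most alternatives are not given, so the counts that follow are no result about the members. At an unadjusted p under 0.05, all 12 blood libraries gave 0 members for nPM, 0 for sex and 0 for the interaction, DESeq2 and filterByExpr each gave 1 for the interaction, and a filter of 1 count in any library gave 1 in cortex (Prf1). Leaving out 1 library gave 0 to 3 members for nPM (0 without the nPM female V1), 0 to 4 for the interaction, 1 to 3 in the permutation tests of CPM and 0 to 2 relative to Ptprc. With all 12 libraries the permutation tests gave 0 members, scaled or in plain CPM. V2 had a TMM factor of 6.56 in every fit and scaled value of all 12. Directions turned with all 12 libraries for Cd8a (log2 fold change 0.17, CPM difference 0.122 scaled and 0.00929 plain, log2 ratio to Ptprc 0.13) and Klrd1 (0.29, and 0.0704 CPM), and Klrd1 was also at 0.0081 with DESeq2, 0.0081 with RLE normalization and 0.0037 with the filter of 1 count in any library. Leaving out 1 library turned the log2 fold change of Cd3e (-0.28 to 0.37), Cd3g (-0.44 to 0.0062), Cd8a (-0.35 to 0.18) and Klrd1 (-0.32 to 0.25). It turned the CPM difference of Cd3e (-0.130 to 0.179), Cd8a (-0.414 to 0.207), Prf1 (-0.00411 to 0.108) and Klrd1 (-0.140 to 0.0254). It turned the log2 ratio to Ptprc of Cd3e (-0.23 to 0.62), Cd8a (-0.25 to 0.048) and Klrd1 (-0.34 to 0.091). The cause of these changes was not tested. Nkg7 and Gzma were below 0 under every alternative run in model 1, Nkg7 from -1.34 to -0.71 and Gzma from -1.53 to -0.48 over the omissions of 1 library. No paired analysis was possible because the labels give no replicate numbers that groups share. Depth limits members of both kinds, with at most 10 counts of Prf1, 26 of Nkg7 and 37 of Cd3e in a blood library.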
